A study of Homo sapiens with 5 samples.

Results

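The genes described here differed from the pUC19 control library in cells given the dCas9-BFP-DNMT1 fusion and not in cells given the other 3 fusions. A gene was taken when its level (TPM + 0.1, where TPM scales read numbers by transcript length and by library) differed at least 2-fold between the DNMT1 fusion library and the pUC19 library, and less than 1.5-fold between pUC19 and each of the libraries of the DNMT3A, DNMT3B and EGFP fusions. Of the 19716 genes with a read in any library, 183 met these limits, 125 higher and 58 lower in the DNMT1 fusion library. The measured levels themselves chose these genes, so their differences are a description, and no test was made of them.

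The 5 RNA libraries came from HEK293T, an established cell line of human embryonic kidney origin with the large T antigen of SV40, 48 h after transfection with 1 ug of plasmid in total. Of these, 4 were co-transfected with 5 sgRNAs to the gene of urokinase plasminogen activator (uPA, gene symbol PLAU) and with 1 fusion each, driven by the PGK promoter: dCas9-BFP joined to DNMT1, to DNMT3A, to DNMT3B or to EGFP. The fifth had received pUC19, a plasmid without dCas9 or sgRNA. Each group had 1 library, so no difference has a replicate check, and the intervals below cover counting error only. The labels give RNA from sorted BFP-positive cells for every library, and how this applied to the pUC19 cells, which had no BFP plasmid, is not given in the sources used here. The sort, the guides, the fusion and the single transfection cannot be told apart in a comparison with pUC19. The 4 comparisons also share that library.

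dCas9, a Cas9 protein that no longer cuts, is led by its guide to matching DNA. DNMT1 copies methylation onto the new DNA strand after replication, DNMT3A and DNMT3B methylate DNA that had no mark, and EGFP has no methyltransferase activity. The methyltransferase fusions carry only the catalytic domain of the enzyme. The paper cites earlier reports that this domain is active when taken from DNMT3A or DNMT3B and not when taken from DNMT1. The paper reports significantly more methylation at the uPA promoter with the DNMT3A and DNMT3B fusions, and not with the DNMT1 or EGFP fusions. The heat shock response, to which several of the genes below belong, is a programme of protein folding helpers (chaperones) that the transcription factor HSF1 switches on when unfolded proteins build up. HSF1 binds inverted repeats of the letters GAA in front of its target genes.

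Those letters were searched for because chaperone genes stood out among the higher genes, so the search was chosen after their values were seen. Of each promoter in the RefSeq table (GRCh38.p14), the 250 bases before the start site were searched and the 50 bases after it were not. The inverted repeats GAANNTTC and TTCNNGAA each read the same on both strands, and they can overlap. The windows below are shown for the 3 well-measured chaperone genes that met the rule and for HSPA1A, an inducible HSP70 gene that did not meet the rule because it was lower than pUC19 with another fusion. Capitals mark the matches, 5′ to 3′ on the strand of the gene. The windows lie at chr14:102087089-102087148 (minus strand) for HSP90AA1, chr7:76302465-76302524 (plus strand) for HSPB1, chr11:75562153-75562212 (plus strand) for SERPINH1 and chr6:31815411-31815470 (plus strand) for HSPA1A.
HSP90AA1: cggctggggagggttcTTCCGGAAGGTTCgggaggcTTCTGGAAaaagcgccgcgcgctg
HSPB1: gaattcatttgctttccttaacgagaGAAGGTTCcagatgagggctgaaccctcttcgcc
SERPINH1: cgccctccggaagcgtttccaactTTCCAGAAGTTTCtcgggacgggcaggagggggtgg
HSPA1A: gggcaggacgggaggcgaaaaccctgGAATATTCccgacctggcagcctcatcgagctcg

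The matches began 88, 83 and 68 bases before the start of HSP90AA1, 182 before that of HSPB1, 76 and 71 before that of SERPINH1 and 106 before that of HSPA1A. HSP90AA1 and SERPINH1 each have another start site in the table, with 0 matches before it, and a gene was counted below when any of its promoters held a match. In HSP90AA1 and SERPINH1 a TTCNNGAA and a GAANNTTC shared 3 bases and formed a run of 3 alternating repeats. GAANNTTC was found before 3 of the 7 well-measured higher genes and before 0 of the 17 well-measured lower genes that have a promoter in the table. The shares beside these were 5.67% of all well-measured genes and 7.05% of all 27305 genes in it. The 3 higher genes were HSP90AA1, HSPB1 and SERPINH1, the chaperone genes that prompted the search. TTCNNGAA was found before 2 of the 7 and 3 of the 17, beside 7.22% of all well-measured genes and 8.12% of all genes. HSPH1, a chaperone gene also at least 2-fold higher with the DNMT1 fusion, had 0 matches before its start site. Of 14 genes of the heat shock list below with a promoter in the table, 11 held either form, beside 11.9% of all well-measured genes. A match describes the letters and is not a measured binding site.

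Most of the 183 genes had few reads. A mean of under 10 reads over the 5 libraries held for 122 of them, 105 of which were higher, and these 122 had a median of 2 reads in the DNMT1 fusion library and 0 in pUC19. With a mean of 10 to 50 reads there were 31 genes, and 30 had a mean of at least 50 reads (called well measured below). The rule took 2.79% of genes in the lowest of these classes, 1.42% in the middle class and 0.228% in the highest. The read ratio is reads with the DNMT1 fusion over reads in pUC19, scaled to TPM, so it differs from the ratio of the raw reads. Its 95% exact (Clopper-Pearson) interval held 1 for 99 of the 122 genes, for 1 of the 31 and for 0 of the 30. Differences among the 122 genes were therefore mostly not detectable at this depth. The rule asked for a 2-fold difference in these same reads, so with many reads an interval without 1 follows largely from the selection. The account below turns on the 30 for their read numbers, and the intervals do not set them apart from the 31.

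**Figure D1:**
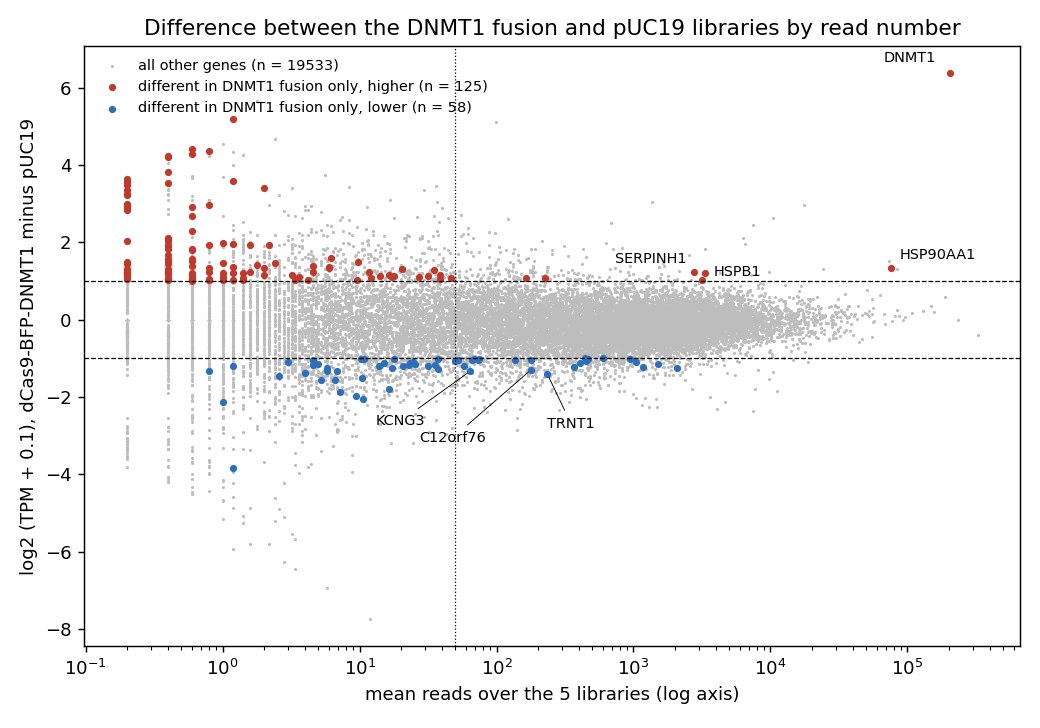
Each point is a gene, with the mean reads over the 5 libraries on the horizontal log axis and the difference in log2 (TPM + 0.1) between the DNMT1 fusion and pUC19 libraries on the vertical axis. The dashed lines mark 2-fold and the dotted line a mean of 50 reads. Red and blue points are the 125 higher and 58 lower genes that met the rule, and most of the red points lie left of the dotted line, whereas DNMT1, HSP90AA1, SERPINH1 and HSPB1 stand far to its right.

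At least 2-fold differences were common in this comparison. Of all 19716 genes, 4.14% were at least 2-fold higher and 7.76% at least 2-fold lower in the DNMT1 fusion library. Among the 13169 genes with a mean of at least 50 reads these shares were 1.46% (192 genes) and 4.10% (540 genes). The rule took 7 of the 192 and 23 of the 540. Of the 192, 81 were also at least 2-fold higher in all 3 other fusion libraries, and of the 540, 182 were at least 2-fold lower in all 3.

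The DNMT1 fusion library was shifted as a whole. The median log2 fold of genes with a mean of at least 50 reads was -0.138 with the DNMT1 fusion and between -0.00972 and -0.00549 with the other 3. Scaling by edgeR's TMM raised the DNMT1 fold changes by 0.128 and brought that median to -0.0107. The split of 192 higher and 540 lower genes (26.2% higher) became 273 and 353 (43.6% higher) under TMM, and 281 and 340 (45.2% higher) under DESeq2 size factors. A gene just past 2-fold lower therefore stood less than 2-fold below the median gene of the same library.

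DNMT1 itself was the gene with the largest difference of the 183. Its row held 979416 reads in the DNMT1 fusion library, 10766 with the DNMT3A fusion, 9678 with the DNMT3B fusion, 9974 with the EGFP fusion and 15181 with pUC19. The level was 14581.5 TPM against 175.5 TPM in pUC19, a read ratio of 83.1 (95% exact interval 81.8 to 84.4). DNMT1 took 3.533% of all reads in its library, more than any other gene. The plasmid encodes the catalytic domain, so this row adds the fusion to the cell's own transcript, and the 2 cannot be separated in the table. In the 3 other fusion libraries the row stood between 155.8 and 162.8 TPM. The rows of DNMT3A and DNMT3B were likewise high in the libraries of their own plasmids, at log2 folds of 10.43 and 9.52. With the DNMT1 fusion the DNMT3A row was at a log2 fold of 0.59 and the DNMT3B row at -0.40.

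The target of the guides was not among the genes that differed with the DNMT1 fusion only. PLAU had 106 reads in pUC19, 6 with the DNMT1 fusion, 6 with the DNMT3A fusion, 1 with the DNMT3B fusion and 4 with the EGFP fusion. All 4 fusion libraries were low.

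Chaperones made up the leading well-measured higher genes apart from DNMT1. HSP90AA1, the inducible cytosolic HSP90, had 2716 TPM with the DNMT1 fusion, 1099 with the DNMT3A fusion, 1330 with the DNMT3B fusion, 1521 with the EGFP fusion and 1068 with pUC19. It had 130686 reads against 66181 in pUC19, and the read ratio, scaled to TPM, was 2.54 (2.52 to 2.57). The DNMT1 fusion library stood alone, 0.84 on the log2 scale above the next library. HSPB1, the small heat shock protein HSP27, had 501.5 TPM with the DNMT1 fusion and 239.1, 270.5, 209.3 and 216.1 TPM with the DNMT3A fusion, the DNMT3B fusion, the EGFP fusion and pUC19. Its read ratio was 2.32 (2.22 to 2.43). SERPINH1, the collagen chaperone HSP47 of the endoplasmic reticulum, had 150.7 TPM against 91.25, 76.5, 89.39 and 64.46 TPM in the same order. Its read ratio was 2.34 (2.22 to 2.46), and the DNMT3A and EGFP fusion libraries were also above pUC19, by 0.50 and 0.47 on the log2 scale. By GENCODE on GRCh37 these genes lie at chr14:102547079-102606036, chr7:75931990-75933612 and chr11:75273101-75283828.

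The other 3 well-measured higher genes were close to the limits of the rule. KBTBD12, a protein of the kelch and BTB family, had 3.787 TPM with the DNMT1 fusion and between 1.726 and 2.414 TPM in the other libraries. The deposited coverage of KBTBD12, which the authors did not define, was only 6.7% with the DNMT1 fusion and 6.45% in pUC19. B3GNT7, an enzyme that lengthens sugar chains, had 7.409 TPM against 3.462 to 4.958. EPN1, the endocytic adaptor epsin, had 119.4 TPM against 58.93 in pUC19, and with 88.4 TPM in the DNMT3A and 88.11 TPM in the EGFP fusion library it lay just under 1.5-fold in both.

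The heat shock genes were then taken as a list of 15, of which 13 were well measured. This list was chosen with earlier results of these data known, so its counts are a description. It includes 2 genes that met the rule, HSP90AA1 and HSPB1. The rule itself makes these at least 2-fold higher and highest in the DNMT1 fusion library, and they are part of all values below. In the DNMT1 fusion library 8 of the 13 were at least 2-fold higher and 0 at least 2-fold lower, beside 1.46% and 4.10% of all well-measured genes. The median log2 fold of the 13 was 1.21 with the DNMT1 fusion, 0.33 with the DNMT3A fusion, 0.49 with the DNMT3B fusion and 0.10 with the EGFP fusion. The DNMT1 fusion library held the highest level of all 5 libraries for 11 of the 13 genes, beside 8.44% of all well-measured genes. The summed level of the 15 genes was 10595 TPM with the DNMT1 fusion and between 4977.4 (pUC19) and 6138.9 TPM (DNMT3B fusion) elsewhere.

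The inducible HSP70 genes HSPA1A and HSPA1B also differed, although the rule left them out. HSPA1B had 61925 reads with the DNMT1 fusion, 4212 with the DNMT3A fusion, 6723 with the DNMT3B fusion, 4470 with the EGFP fusion and 10230 with pUC19. HSPA1A had 4849, 327, 518, 368 and 755 reads in the same order. Both were at least 7-fold above pUC19 with the DNMT1 fusion, at read ratios, scaled to TPM, of 7.80 (7.63 to 7.96) and 8.27 (7.66 to 8.94). They were lower than in pUC19 with the DNMT3A fusion, at log2 folds of -0.96 and -0.88, and with the EGFP fusion, at -0.70 and -0.54. These values lie beyond or near 1.5-fold in the opposite direction, which is why neither gene met the rule. HSPA1A and HSPA1B are near-identical copies, and since the study counted unique reads only, the division of reads between them is uncertain.

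HSPA6, an HSP70 that is nearly silent without stress, had 379 reads with the DNMT1 fusion, 39 with the DNMT3A fusion, 44 with the DNMT3B fusion, 21 with the EGFP fusion and 10 with pUC19. Its log2 fold of 5.11 with the DNMT1 fusion was the largest of the list. It was above pUC19 in every fusion library and highest with DNMT1. DNAJB1, the HSP40 partner of HSP70, was also above pUC19 in every fusion library, with 499.8 TPM for DNMT1 and 264.7, 321.4, 188.4 and 92.23 TPM for DNMT3A, DNMT3B, EGFP and pUC19. HSPH1 (HSP110) and DNAJB4 were at log2 folds of 1.22 and 1.17 with the DNMT1 fusion and between 0.26 and 1.00 with the others.

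The other 5 well-measured members of the list did not reach 2-fold. HSPA8, the constitutive HSP70, was at a log2 fold of 0.65, DNAJA1 at 0.82 and BAG3, a partner of HSP70, at 0.79, with values with the DNMT3B fusion of 0.49, 0.66 and 0.97. The mitochondrial chaperones HSPD1 and HSPE1 were at 0.02 and -0.22 with the DNMT1 fusion and between -0.89 and -0.27 with the others. CRYAB, a small heat shock protein with few reads, was at a log2 fold of 3.74, with 21 reads with the DNMT1 fusion, 1 in pUC19 and 0 to 5 with the other fusions, so that 9 of all 15 listed genes were at least 2-fold higher.

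**Figure D2:**
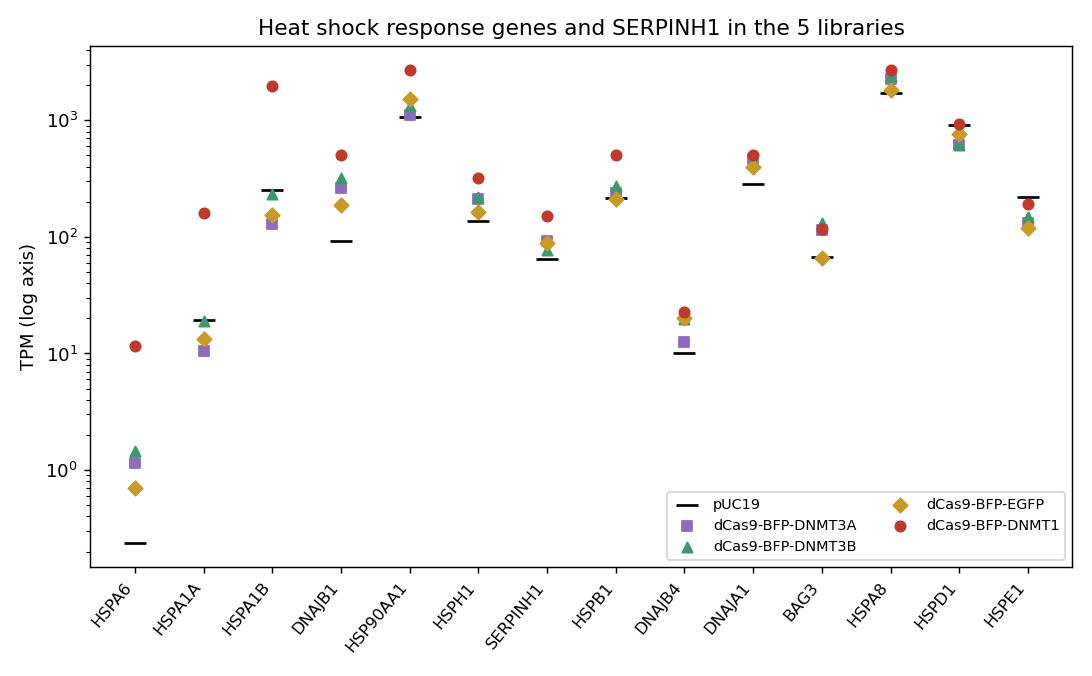
The level in TPM (vertical log axis) of the 13 well-measured heat shock genes and SERPINH1 in each of the 5 libraries, 1 point per library, with pUC19 as a bar. The DNMT1 fusion library (red) lies apart from the other 4 for HSPA6, HSPA1A, HSPA1B, HSP90AA1 and HSPB1, and among them for BAG3 and HSPE1.

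The level of the fusions could not be compared between libraries from the reads. For microscopy of transfected HEK293T cells, the paper describes the BFP signal of the DNMT1 fusion as initially weaker than that of the other fusions. The rows of the delivered enzymes held 979416 reads for DNMT1, 937571 for DNMT3A and 1624754 for DNMT3B, each in its own library, and TPM divides these by the length of the full transcript although the plasmids carry the catalytic domain. The EGFP fusion has no such row. The part of plasmid dose in the chaperone levels was not tested.

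The well-measured genes at least 2-fold different with the DNMT1 fusion, and not only those of the rule, were ranked by distance. The 10 with the largest upward distance between the DNMT1 fusion library and the next library were DNMT1, HSPA1A, HSPA1B, HSPA6, MALAT1, HSPB1, HSP90AA1, SERPINH1, PCSK1N and DNAJB1. MALAT1, a nuclear long noncoding RNA, had 11996 reads with the DNMT1 fusion, 3532 with pUC19 and between 4105 and 6155 in the other 3. It was at least 1.5-fold above pUC19 in each of them and so did not meet the rule.

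The 23 well-measured lower genes were of many kinds, and none of the gene lists held any of them. Their log2 folds ran from -1.40 (TRNT1) to just past 2-fold. For 4 of them the interval of the read ratio lay wholly beyond 2-fold, namely TRNT1, ZNF711, PMAIP1 and PTBP2. With the trend on GC content and length removed, their log2 folds were -1.02, -0.86, -0.85 and -0.68 in the same order, so only TRNT1 stayed past 2-fold.

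Among genes of RNA metabolism, TRNT1, which adds the CCA end to transfer RNAs, had 4.231 TPM with the DNMT1 fusion, 8.12 with the DNMT3A fusion, 7.984 with the DNMT3B fusion, 7.615 with the EGFP fusion and 11.36 with pUC19. It was the lowest of the 23, and its 3 other fusion libraries were also below pUC19, by 0.48 to 0.57 on the log2 scale. PTBP2, the neuronal splicing repressor, had 19 TPM with the DNMT1 fusion against 41.93 in pUC19, and 28.53 TPM with the EGFP fusion. C1D, a cofactor of the nuclear exosome, and DDX26B (INTS6L), related to a subunit of the Integrator complex, lay on the 2-fold limit. They had 22.59 TPM against 45.31 in pUC19 and 5.2 against 10.52.

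PMAIP1, which encodes the apoptosis inducer NOXA, had 1137 reads with the DNMT1 fusion, 1937 with the DNMT3A fusion, 1666 with the DNMT3B fusion, 2199 with the EGFP fusion and 3469 with pUC19. Its read ratio, scaled to TPM, was 0.422 (0.394 to 0.451). All 4 fusion libraries lay below pUC19 and the DNMT1 fusion library lay lowest. CDKN1A, a cell cycle inhibitor that like PMAIP1 is known as a target of p53, was at least 2-fold higher in all 4 fusion libraries, with a log2 fold of 1.12 for the DNMT1 fusion.

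Of the genes for transcription factors, ZNF711, a zinc finger protein, had 12.13 TPM with the DNMT1 fusion against 28.55 in pUC19 and 20.49 to 25.66 with the other fusions. EOMES, a T-box factor of early development, had 2.432 TPM against 5.143 in pUC19. It was higher than pUC19 with the DNMT3A (7.519 TPM) and DNMT3B (6.83 TPM) fusions and lower with the EGFP fusion (3.47 TPM). ZKSCAN2, another zinc finger protein, was at -1.03.

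The genes of receptors, channels and signalling proteins had few reads for the most part. RND3, a small GTPase, had 558 reads with the DNMT1 fusion, 1176 with the DNMT3A fusion, 1150 with the DNMT3B fusion, 816 with the EGFP fusion and 1547 with pUC19. IL1R1, the interleukin 1 receptor, had 31 reads against 54 to 88 in the other libraries, and GPR37, an orphan G protein-coupled receptor, 29 against 66 to 84. KCNG3, a potassium channel subunit, had 28 reads against 49 to 100, and PDE4B, a phosphodiesterase that breaks down cAMP, 29 against 43 to 94. In each of these genes the DNMT1 fusion library was the lowest, as the rule requires, and the intervals of the read ratio were wide (0.253 to 0.608 for PDE4B).

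LONRF1, a RING finger protein, showed the largest distance of the lower genes from the next library. It had 202 reads with the DNMT1 fusion, 582 with the DNMT3A fusion, 522 with the DNMT3B fusion, 385 with the EGFP fusion and 549 with pUC19, 1.05 below the next library on the log2 scale. GPR37 followed at 1.04 and C12orf76, a gene of unknown function, at 1.02. C12orf76 had 3.528 TPM with the DNMT1 fusion and between 7.261 and 8.798 TPM elsewhere. TMEM64, a membrane protein, had 3.218 TPM against 5.913 to 7.587.

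The others were BLOC1S4, a subunit of a complex that builds lysosome-related organelles (10.81 TPM against 15.92 to 26.71), NEU3, a sialidase of the plasma membrane (8.053 against 12.8 to 16.48), and MTMR11 of the myotubularin family (0.9258 against 1.538 to 2.899). TRHDE-AS1, STARD7-AS1 and C1orf61 (MIR9-1HG) are annotated as noncoding RNAs and WHAMMP1 as a transcribed pseudogene, and their log2 folds lay between -1.06 and -1.03. The antisense genes overlap or adjoin genes on the other strand, and the sources used here do not say that counting used the strand.

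**Figure D3:**
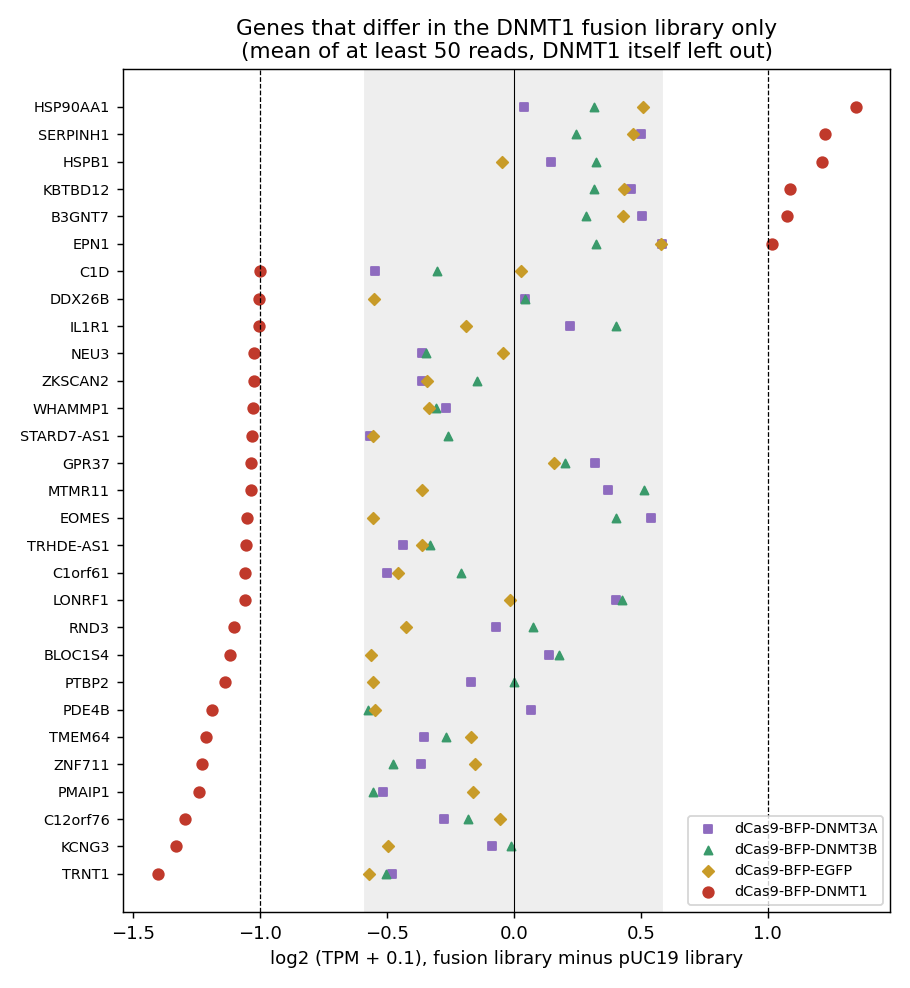
The 29 well-measured genes other than DNMT1 that met the rule, with the difference in log2 (TPM + 0.1) from pUC19 in each of the 4 fusion libraries on the horizontal axis. The dashed lines mark 2-fold, which the red points (DNMT1 fusion) pass by selection, and the grey band marks the 1.5-fold limit that holds the other 3. Only HSP90AA1, SERPINH1 and HSPB1 lie above 1.2 on the right side, and most of the lower genes lie close to the dashed line on the left.

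Few genes stood clear of the limits. Just inside 2-fold among higher genes were EPN1 (2.024-fold in TPM + 0.1) and B3GNT7 (2.108-fold), and just outside were ADH4 (1.956-fold) and TMEM184A (1.927-fold). Among lower genes C1D (0.4997 of the pUC19 level) and DDX26B (0.4992) lay inside, and C5orf34 (0.504) and OXSR1 (0.5077) outside. At the 1.5-fold limit EPN1 (1.499) and HSP90AA1 (1.424, EGFP fusion) were inside and SYT12 (1.512) and TMEM132A (1.543) outside for higher genes. For lower genes PDE4B (1.489) and TRNT1 (1.486) were inside and LENG9 (1.501) and MARCH7 (1.502) outside.

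Each of the well-measured genes was also followed under 6 other ways of processing the values. HSP90AA1, HSPB1 and SERPINH1 met the rule in all 6, and DNMT1 in all 5 that keep its row. KBTBD12 met it in 5, B3GNT7 in 4 and EPN1 in 1. Of the 23 lower genes, C12orf76 and TRNT1 met the rule in all 6. With TMM scaling 8 of the 23 did, and with the trend on GC content and length removed 4 of the 23 did.

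GC content and length were set beside those of all genes that differed. The 23 lower genes had a median GC content of 46.3% and a median transcript length of 2879 bases, beside 46.2% and 3000 for all 540 lower genes and 48.7% and 3165 for all well-measured genes. The 7 higher genes had a median of 59.4% GC, beside 55.7% for the 192 higher genes. Fold changes in this library followed GC content: the median log2 fold was -0.33 in the fifth of well-measured genes with the lowest GC content and 0.04 in the fifth with the highest. In these 2 classes it was -0.25 and 0.22 with the DNMT3A fusion and -0.07 and -0.03 with the EGFP fusion. The part of GC content in the lower genes' differences was not tested beyond the correction above.

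By gene class, 19 of the 23 lower and 7 of the 7 higher well-measured genes were protein coding. Over all 183 genes the share was 67.8%, beside 85.8% of all genes, and small RNAs were 9.84%, beside 1.69%. The 18 genes with a small RNA class in the annotation were all higher and all had few reads. For so short a transcript 1 read against 0 can pass 2-fold, as for MIR718 at a log2 fold of 3.65. A lower gene needs reads in pUC19 and in the other fusion libraries. The share of small RNAs and their direction therefore follow largely from the rule. MIR566, a microRNA by its name, has no class in the annotation and was lower, with 0 reads against 2 in pUC19. The 30 well-measured genes lay on 14 chromosomes, with at most 6 on 1 chromosome, and 0 pairs moving in the same direction had starts within 100 kb.

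Among the genes with few reads, the highest read numbers with the DNMT1 fusion were 20 for SPARCL1, a matrix glycoprotein, against 6 in pUC19, and 19 for MATN1, a cartilage matrix protein, against 9. CSTA, a cysteine protease inhibitor, had 10 reads with the DNMT1 fusion and 0 in each of the other 4 libraries. These were chosen for their read numbers after the values were seen. Of the 122 genes with a mean of under 10 reads, 83 had no read in pUC19, which allows up to 3 reads, and 9 had no read with the DNMT1 fusion. NNAT, an imprinted gene, met the rule with 1 read against 8 in pUC19 and 4 to 8 with the other fusions.

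The same rule was applied to each fusion in turn, to set the number of genes beside that of the others. It took 271 genes for EGFP, 183 for DNMT1, 160 for DNMT3A and 147 for DNMT3B. Among well-measured genes it took 58, 30, 22 and 18 in the same order. At least 2-fold different in these libraries were 849, 732, 1412 and 1337 well-measured genes, of which the rule took 6.83%, 4.1%, 1.56% and 1.35%. A gene past 1.5-fold in another fusion library as well does not meet the rule. The EGFP fusion thus gave the most genes that differed in 1 library only. The direction also differed, with 23 of 30 lower for DNMT1 and 26 of 58 lower for EGFP, but under TMM scaling the numbers became 8 of 20 for DNMT1 and 42 of 64 for EGFP. With 1 library each, whether these numbers differ beyond the spread between transfections cannot be told.

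**Figure D4:**
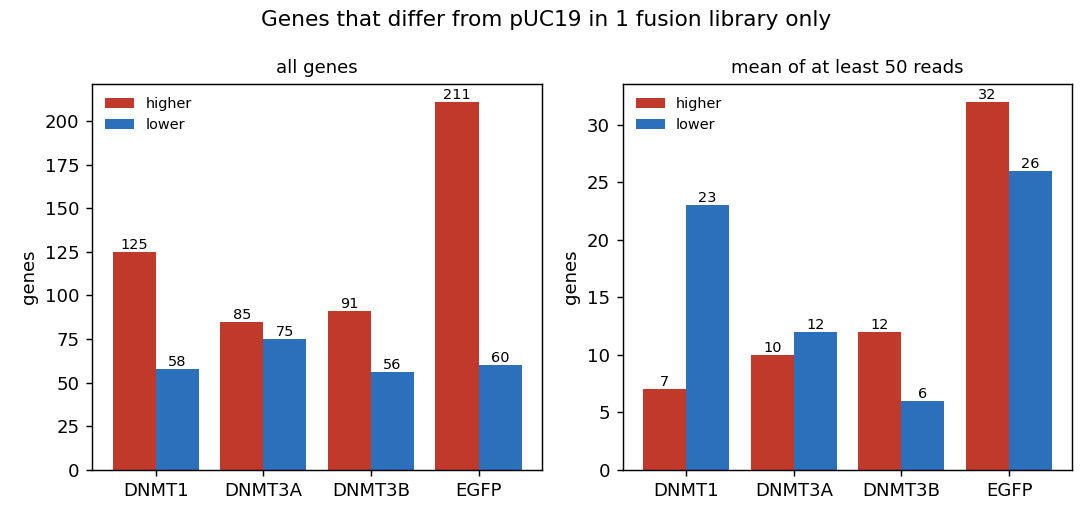
Numbers of genes that differed at least 2-fold from pUC19 in 1 fusion library and less than 1.5-fold in the other 3, for each fusion, higher in red and lower in blue. The left panel counts all genes and the right panel genes with a mean of at least 50 reads, where the EGFP fusion has 32 and 26 genes and the DNMT1 fusion 7 and 23.

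Other stress and growth lists are given beside the other fusions, which share the pUC19 library. Among all 13169 well-measured genes, 192 were at least 2-fold higher with the DNMT1 fusion, 719 with the DNMT3A fusion, 755 with the DNMT3B fusion and 380 with the EGFP fusion, and 540, 693, 582 and 469 were lower, so counts on a list have different backgrounds. Of 25 integrated stress response genes, 5 were at least 2-fold higher with the DNMT1 fusion (DDIT3, PPP1R15A, NUPR1, TRIB3 and CHAC1) and 0 lower, beside 6 higher with the DNMT3A fusion, 6 with the DNMT3B fusion and 9 with the EGFP fusion. DDIT3, a transcription factor of this response, was at a log2 fold of 1.40 with the DNMT1 fusion and 1.92 with the EGFP fusion. Of 17 genes of the unfolded protein response of the endoplasmic reticulum, 0 were at least 2-fold higher or lower with the DNMT1 fusion, with a median of 0.23. Of 22 well-measured cholesterol synthesis genes, 4 were at least 2-fold lower (HMGCS1, IDI1, INSIG1 and SQLE) and 0 higher, beside 6, 6 and 3 lower with the DNMT3A, DNMT3B and EGFP fusions. None of these genes met the rule.

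HMOX1, a target of the oxidative stress factor NRF2, was higher in every fusion library and lower with DNMT1 than with the de novo enzymes, at a log2 fold of 2.63 with the DNMT1 fusion, 3.65 with the DNMT3A fusion, 4.30 with the DNMT3B fusion and 2.77 with the EGFP fusion. It and PIR were the 2 well-measured NRF2 targets of 15 that were at least 2-fold higher. Of 10 well-measured interferon-stimulated genes 1 was higher (OAS3), of 19 p53 targets 1 was higher (CDKN1A), and of 20 immediate early genes 2 were lower (MYC and FOS). Of 30 genes of DNA replication 1 was lower (CCNE1), and of 24 mitosis genes 0 differed at least 2-fold in either direction.

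The machinery and usual targets of DNA methylation showed few differences of this size. Of 19 well-measured genes of the machinery, DNMT1 was higher and ZBTB33, a reader of methylated DNA, was lower, at a log2 fold of -1.41, with -1.14, -0.84 and -0.88 for the DNMT3A, DNMT3B and EGFP fusions. UHRF1, which brings DNMT1 to replicated DNA, was at -0.08. Of the 22 germline genes that methylation keeps silent, 17 had any read and 2 were well measured, of which TEX15 was lower at -1.20, as it was with the other 3 fusions. Of 8 well-measured imprinted genes and of 2 well-measured metallothioneins 0 differed at least 2-fold.

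The label of the cells was checked against marker genes. All 9 HEK293 markers were well measured, and IRS4, NEFM and NEFL were at least 2-fold lower with the DNMT1 fusion, at 3675 reads against 24500 in pUC19, 1948 against 10067 and 1701 against 5573, and also with the other 3 fusions. Markers of blood cells summed to between 10.2 and 15.2 TPM in the 5 libraries, those of fibroblasts to between 4.56 and 8.91 and those of endothelial cells to between 0.946 and 1.32. The haemoglobin gene HBB had 0 or 1 read in every library, and CD3E, COL1A2 and CDH5 had no read listed. In bulk RNA, fewer cells of a kind and less RNA per cell cannot be told apart.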

How the data were processed

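Poly(A) RNA was sequenced on an Ion Proton. The study's methods give cDNA of about 240 bp amplified by 12 PCR cycles, removal of reads under 30 nt, and alignment by tmap to UCSC RefSeq RNA of hg19 with at most 3 mismatches. The authors deposited per gene a count of unique reads, TPM, and a coverage in percent, which they did not define; it was used as a check only. Genes missing from a table were set to 0 reads. Totals ran from 26246039 to 36142580 reads. Counting unique reads lowers genes with near-identical copies, and plasmid transcripts add to the DNMT rows.

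Fold changes are on the log2(TPM + 0.1) scale, which understates low genes. With 1 library per group, no test was made. Read ratios and their 95% exact (Clopper-Pearson) intervals are scaled to TPM. The intervals cover counting error only, PCR reads are not independent molecules, and a count of 0 allows 3 reads. The members and lists were chosen with earlier results of these data known. Named genes were DNMT1, DNMT3A, DNMT3B, PLAU; up to 12 members per direction with a mean of at least 50 reads and the largest gap to the nearest other library; the 2 genes per direction on either side of each limit; members in a list; and members within 100 kb of each other. The account names all 30 well-measured members, more than that rule, and marks other additions. 1 of the genes with few reads is included in the counts and not described here.

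Alternatives were a pseudocount of 1 TPM, minimum means of 10 and 50 reads, edgeR 4.0.16 TMM scaling, DESeq2 1.42.0 size factors, TPM without the DNMT rows, removal of a loess trend (span 0.3) on GC content and length, a 1.25-fold limit, and thinning to the smallest total. R 4.3.3, Python 3.11.15, numpy 2.4.6, pandas 2.3.3, scipy 1.17.1 and matplotlib 3.10.9 were used, and scripts were tested on simulated data. Positions and GC content come from GENCODE v44 on GRCh37 and were found for 97.4% of genes, and names by gene ID from RefSeq for 99.4%.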

Additional observations from a re-analysis of the deposited data

Results flagged for a closer look

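Among genes with a mean of at least 50 reads, 6 were at least 2-fold different from pUC19 with the DNMT1 fusion and more than 1.5-fold different the other way in another fusion library. With 1 library each, the difference between the fusions was not tested. HSPA1A and HSPA1B, copies of the inducible HSP70 gene, were at log2 folds of 3.04 and 2.96 with the DNMT1 fusion, beside -0.88 and -0.96 with the DNMT3A fusion. H3F3A, a histone gene with near-identical copies, was at 1.97 with the DNMT1 fusion from 129 reads against 41 in pUC19, at 1.67 with the DNMT3A fusion, and at -1.19 with both the DNMT3B and the EGFP fusions. WASH7P, a pseudogene of a family with many copies, was at 1.06 with the DNMT1 fusion, at 1.23 with both the DNMT3A and the DNMT3B fusions, and at -0.93 with the EGFP fusion. IGIP and FLVCR1-AS1 were at -1.02 and -1.18 with the DNMT1 fusion and at 0.69 and 0.63 with the EGFP fusion, from 35 and 23 reads with the DNMT1 fusion. With the DNMT3A fusion they were at -1.02 and -0.56, and with the DNMT3B fusion at -0.93 and 0.06. For WASH7P and IGIP the EGFP fusion library was thus the one that differed from the other fusions.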

How the results depend on the processing

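No paired analysis was possible because each group had 1 library, and for the same reason no library could be left out. The number of genes that met the rule was 183. It became 37 with a pseudocount of 1 TPM, 61 and 30 with minimum means of 10 and 50 reads, and 92 with the narrower limit in the other fusions, of which 3 were well measured. Each of these settings takes out genes with few reads or narrows the limit. Under both scalings, without the DNMT rows, with the GC and length trend removed and after thinning the number stayed between 176 and 180, but the genes were not the same: 160 of the 183 remained under TMM and 127 of the 173 with a GC value remained with the trend removed. Among well-measured genes 14 of 30 remained under TMM and 10 of 30 with the trend removed. The 2346 genes at least 2-fold different became 681 with a pseudocount of 1 TPM and 1216 and 732 with the minimum means. The split under TMM was 978 higher and 1255 lower, beside 816 and 1530. With a minimum mean of 50 reads the rule took 22 genes for DNMT3A, 18 for DNMT3B and 58 for EGFP, beside 160, 147 and 271. Of the 21 named genes at least 2-fold different, 15 remained so under TMM, 12 with a pseudocount of 1 TPM and 11 with the trend removed, and 0 changed direction. The 8 heat shock genes that were at least 2-fold higher numbered 8 or 9 under the 6 settings chosen for them after seeing the data, as were the scalings of the rule for each fusion.

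The depth limits what the genes with few reads can show. Spread between transfections was not measured for any value.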
